A study of Homo sapiens with 12 samples.

Results

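The regions described here are 2984 narrow stretches of accessible chromatin whose rank in fold enrichment stayed nearly level across 4 conditions in G401 cells. They were found by merging the peaks of all 12 libraries wherever they overlapped by at least 1 bp, which gave 187088 regions. Of these, 18114 had a peak in every library, and 18058 of those were narrower than 1000 bp. Within each library the 18114 shared regions were ranked by their highest peak fold, and the rank was written as a percentile from 0 to 100. A narrower region was kept as stable when the mean percentile of each group lay within 5 points of its mean over the 12 libraries. The 2984 stable regions are 16.5% of the narrower shared regions. The fold percentiles chose the regions, so percentiles, folds and differences between conditions are given below as descriptions with no test.

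G401 is a rhabdoid tumour line, and its genotype in all 4 groups is SMARCB1(-/-), so the controls lack the endogenous gene too. For 24 h the cells received doxycycline, which switched on a GFP control or SMARCB1, alongside DMSO (the solvent) or dBRD9-A, a compound that degrades BRD9. The groups are GFP DMSO, GFP dBRD9-A, SMARCB1 DMSO and SMARCB1 dBRD9-A, with 3 ATAC-seq libraries each. The labels number the replicates but do not say whether they came from separate cultures, so a p-value here measures only the spread between these libraries. The promoter of the induced constructs and whether the cells are 1 clone are not given in the sources used here.

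ATAC-seq uses a transposase that inserts into open DNA, and the short, nucleosome-free fragments counted here pile up over regulatory elements from which nucleosomes are displaced. SMARCB1 is a core subunit of the canonical BAF and PBAF forms of SWI/SNF, the ATP-driven remodelling complexes that open enhancers, and its loss defines rhabdoid tumours. BRD9 is a bromodomain subunit of non-canonical BAF, a form that has no SMARCB1 and stays assembled in SMARCB1-deficient cells. Accessible regions held open in nearly every state of a cell are typically promoters of housekeeping genes and sites bound by CTCF. No gene, promoter or sequence feature was assigned to the regions here, because coordinates are in hg19 and no genome or annotation of that build was used, so the line's identity was not checked against marker genes either.

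The peak lists held from 33428 to 96572 peaks. The genome-wide background pileup, a measure of depth, lay between 0.0383 and 0.0784 fragments in the 6 GFP libraries and between 0.0487 and 0.111 in the 6 SMARCB1 libraries, so depth moved partly with the induction and its part in the results was not tested. The median summit pileup at the stable regions was 20 to 38 fragments per library. Folds are the authors' values, the summit pileup plus 1 over the local background plus 1, and were read as ranks within a library, or relative to that library's median over the shared regions. A level rank is therefore not the same as an unchanged amount of accessible DNA.

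The stable regions were mostly strong regions. Their mean percentile had a median of 77.3, with quartiles of 29.99 and 91.2, while the median over all narrower shared regions was 48.5. Of the 1092 regions with a mean percentile of 90 or more, 849 were stable, or 77.7%. Between percentiles 40 and 50 the share was 4.74%, 105 of 2214 regions. It was 49.6% in the lowest bin of the scale, under 10, 221 of 446 regions. A percentile near either end of the scale has little room to deviate, so this U shape is in part set by the rule, and how large a part was not tested. The stable set thus joins 3 unlike kinds of region: 1555 with a mean percentile of 75 or more, 759 between 25 and 75, and 670 below 25.

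**Figure D1:**
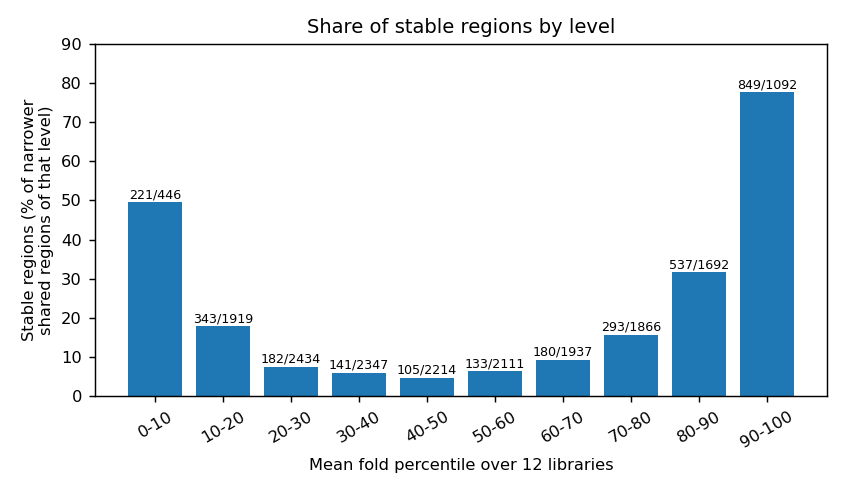
Share of the narrower shared regions that are stable (vertical axis, percent), by mean fold percentile over the 12 libraries (horizontal axis); numbers over the bars are stable regions over all narrower shared regions of that level. The share is 77.7% in the top bin, 49.6% in the bottom bin and 4.74% between 40 and 50.

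These 3 kinds also differ in the number of fragments behind a value. The median summit pileup was 36 fragments at stable regions of percentile 75 or more, 19 at those between 25 and 75, and 7.5 at those below 25. At the ends of the scale it was 39.5 for percentile 90 or more and 5 for those under 10. From 90 upward, the percentiles of a stable region spanned a median of 11.8 points over the 12 libraries, with a median standard deviation within groups of 3.20 points. Between 25 and 75 the span was 39.7 points and the standard deviation within groups 12.6 points. The 5-point limit applies to group means, and in the middle of the scale it is narrower than the scatter of single libraries. Only 332 of the 2984 regions (11.1%) kept all 12 libraries within 10 points, and 317 of these had a mean percentile of 90 or more. The other 15 lay below 25, and none lay between 25 and 90. A span above 50 points was found in 161 stable regions (5.40%), against 6791 of the 15074 other narrower shared regions (45.1%). Over all narrower shared regions the share was 38.5%. Of the 161, 150 were among the 759 stable regions between 25 and 75, and 11 lay below 25. The percentiles chose the stable set and the sets differ in level, so nothing is read from this contrast.

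The differences between conditions that remained inside the limit were small by construction. The SMARCB1 minus GFP difference, averaged over DMSO and dBRD9-A, ran from -9.03 to 9.17 percentile points with a median of -0.0881. The dBRD9-A minus DMSO difference, averaged over the inductions, ran from -9.34 to 8.61 points with a median of -0.0766. The dBRD9-A effect in SMARCB1 minus that in GFP reached further, from -17.7 to 16.2 points. By limiting each group mean, the rule also bounds this difference of differences, but less tightly. The other narrower shared regions spanned -76.1 to 89.9 points for SMARCB1 minus GFP and -35.6 to 35.3 points for dBRD9-A minus DMSO.

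**Figure D2:**
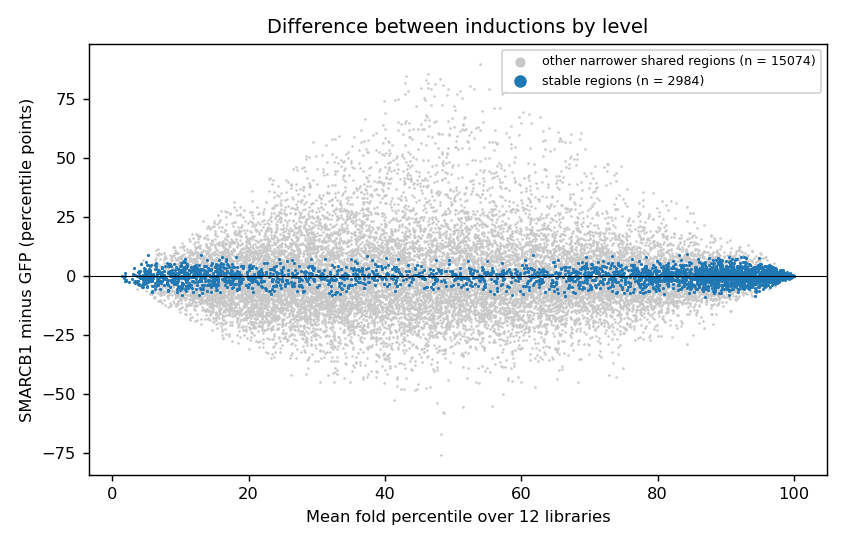
SMARCB1 minus GFP in fold percentile points (vertical axis) against the mean percentile over 12 libraries (horizontal axis); each dot is 1 narrower shared region, with 2984 stable regions in blue and 15074 others in grey. Blue dots fill the band from -9.03 to 9.17 points and are densest at the right end, while grey dots fan out in the middle of the scale.

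The fold of the whole set was alike across groups. The median fold at stable regions was 17.3 ± 3.19 in GFP DMSO, 17.0 ± 2.14 in GFP dBRD9-A, 17.0 ± 0.189 in SMARCB1 DMSO and 16.9 ± 2.30 in SMARCB1 dBRD9-A (mean ± SD over libraries, n = 3 each). Divided by the library's median over all shared regions, it was 1.38 ± 0.00716, 1.38 ± 0.0921, 1.35 ± 0.0356 and 1.34 ± 0.0112 in the same order. The group means lie close together, while the single libraries of 1 group, GFP dBRD9-A, run from 1.28 to 1.47. On the log2 scale of the fold over the library median, SMARCB1 minus GFP had a median of -0.03 and lay between -0.50 and 0.67 over the stable regions. The dBRD9-A minus DMSO difference on this scale lay between -0.42 and 0.41. An absolute SMARCB1 minus GFP difference above 0.5 was found in 3 of the 2984 stable regions and in 1945 of the others (12.9%). Among the others the share followed the level, 14.3% between percentiles 25 and 75 and 2.54% from 75 upward. The rule limits this contrast, so nothing is read from the counts.

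At the very top of the ranking, stable regions held the highest folds of all shared regions in all 4 groups. Repeats, copy number and lists of problem regions were not checked here, so the folds of the strongest regions are given as the lists hold them and are not read as accessibility alone. The region chr10:103124589-103124724, 136 bp wide, held the highest fold of all shared regions in each of the 12 libraries. Its fold was 99.2, 92.0 and 93.0 in the 3 GFP DMSO libraries, 94.6, 89.9 and 94.6 with dBRD9-A, 90.3, 86.8 and 92.5 in SMARCB1 DMSO, and 95.8, 87.3 and 93.8 in SMARCB1 dBRD9-A. These ranges overlap among all groups. Its summit pileup was 440 to 1002 fragments, and the local background there was 4.05 to 9.60 fragments, far above the genome-wide background. It was also the only stable region whose summit fell on the same base in all 12 lists. Such a summit, with a pileup many times the typical value over a narrow stretch, is a feature of this region that a level rank does not describe.

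The next regions down the ranking were wider or had lower pileups. The region chr11:62608359-62609283, 925 bp wide, had folds of 48.2, 61.8 and 64.5 in GFP DMSO, 65.7, 65.8 and 65.1 in GFP dBRD9-A, 58.0, 59.5 and 65.5 in SMARCB1 DMSO and 60.6, 57.7 and 64.6 in SMARCB1 dBRD9-A. It is among the 3 widest stable regions with a single peak in every library, and the lowest value is that of GFP DMSO replicate 1. At chr2:33141297-33141693 the fold was 39.6, 61.6 and 58.6 in GFP DMSO and lay between 69.4 and 80.5 in the other 9 libraries. All 3 GFP DMSO libraries were thus below the rest at this site, with a summit pileup of 65 fragments in replicate 1 against as many as 725 elsewhere, yet its percentile was never under 99.8. The regions chr17:19091340-19091489 and chr7:5279914-5280155 complete the 5 highest, with folds of 36.9 to 50.3 and 29.997 to 47.3.

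A level rank near the top can therefore hide a difference in fold. The clearest case is chr5:11507-11784, near the start of the chromosome, chosen here after its values were seen. It too was not checked for repeats. Its fold was 30.8, 23.05 and 27.6 in GFP DMSO and 42.4, 36.5 and 46.2 in GFP dBRD9-A. It was 52.7, 44.6 and 48.96 in SMARCB1 DMSO and 54.8, 41.8 and 54.0 in SMARCB1 dBRD9-A. The GFP DMSO libraries lie below all others, and the SMARCB1 DMSO libraries lie above all 3 of them. With dBRD9-A, the SMARCB1 and GFP folds overlap. Averaged over DMSO and dBRD9-A, the SMARCB1 minus GFP difference was 0.54 on the log2 scale. The mean percentile was 99.5 and the lowest single percentile 97.1. The reverse direction was seen at chr2:239007171-239007351, with folds of 39.2 to 49.1 in the 6 GFP libraries and 27.3 to 35.0 in the 6 SMARCB1 libraries, a log2 difference of -0.46.

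Few stable regions separated the inductions without overlap, which the rule itself favours. In 2 stable regions all 6 SMARCB1 percentiles were above all 6 GFP percentiles, where the share over the narrower shared regions was 3.34%. In 3 they were all below, against 1.55% of the narrower shared regions. These 5 regions, 0.168% of the stable set, all had a mean percentile above 90. Beside the 2 just described they are chr12:50468992-50469270, chr19:39888388-39888539 and chr19:41104532-41104740, and all 5 were named after their values were seen. For dBRD9-A against DMSO no stable region separated the 6 from the 6 libraries in either direction, where 0.0997% of the narrower shared regions were higher and 0.072% lower. The rule used these contrasts, so nothing is read from the counts.

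In the middle of the scale, stable regions differed widely in how far their libraries lay apart. The narrowest span between percentiles 25 and 75 was at chr6:2765235-2765783, a region of 549 bp. Its percentiles were 64.6, 71.2 and 69.3 in GFP DMSO, 63.8, 59.4 and 73.0 in GFP dBRD9-A, 63.4, 61.7 and 58.4 in SMARCB1 DMSO and 71.2, 59.4 and 65.6 in SMARCB1 dBRD9-A, a span of 14.6 points. The 3 SMARCB1 DMSO libraries lie below the 3 GFP DMSO libraries there, while both dBRD9-A groups overlap all others. The summit pileups were 18 to 43 fragments. Spans of 15.3 and 16.8 points followed at chr2:47142987-47143287 and chr4:17578544-17579173.

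The most even group means did not mark the most even libraries. At chr1:27320073-27320300 no group mean lay more than 0.675 points from the overall mean of 40.2, the closest match of any stable region between 25 and 75. Its 3 GFP dBRD9-A libraries were nevertheless at 67.2, 17.0 and 36.5, while the 3 SMARCB1 DMSO libraries were at 39.3, 46.5 and 36.4. At chr6:87788854-87788993, also among the 5 most even, GFP DMSO held values of 33.0, 90.1 and 8.34. The summit pileups behind those were 13, 22 and 5 fragments, so these values rest on few fragments. The remaining regions of the 5 are chr7:90032625-90032845, chr3:44690053-44690317 and chrX:119694624-119695532, with spans of 44.8, 45.9 and 46.7 points.

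**Figure D3:**
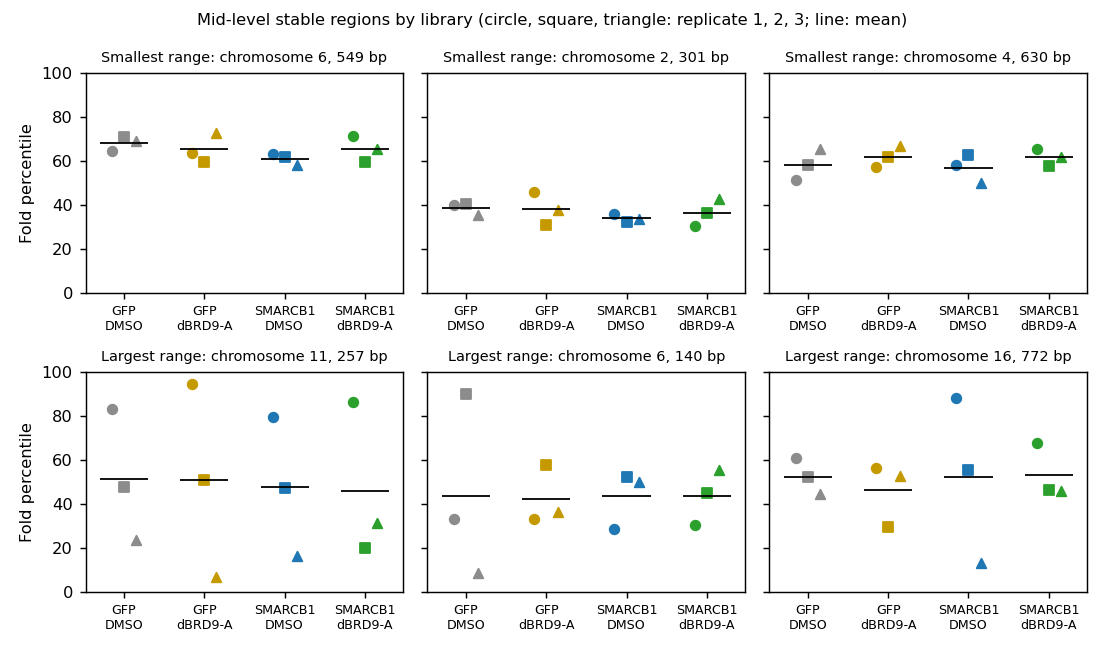
Fold percentile (vertical axis) of 6 stable regions of mean percentile 25 to 75 in the 4 groups, with a circle, square and triangle for replicates 1, 2 and 3 and a line at the mean of 3 libraries. The upper panels hold the regions of smallest span (14.6 to 16.8 points) and the lower panels those of largest span (75.5 to 88.1 points); the group means are level in all 6.

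The largest span of any stable region followed the replicate number. At chr11:61735022-61735278, 257 bp wide, the percentiles of replicates 1, 2 and 3 were 83.1, 47.6 and 23.7 in GFP DMSO, 94.6, 50.9 and 6.498 in GFP dBRD9-A, 79.8, 47.1 and 16.5 in SMARCB1 DMSO and 86.3, 19.99 and 31.1 in SMARCB1 dBRD9-A. All 4 libraries numbered 1 were above the other 8, and the groups overlapped fully. The mean was 86.0 points over the libraries numbered 1, 41.4 over those numbered 2 and 19.5 over those numbered 3, while no group mean was more than 3.12 points from the overall mean of 48.9. Summit pileups were 46 to 73 fragments in the libraries numbered 1 and 14 to 35 in the others, and the summits lay within 12 bp of each other in all 12 lists. A region can thus be level across the 4 conditions and still carry a difference of 66.5 points between replicate numbers, whose meaning the labels do not state. The sample titles carry serial numbers that are consecutive within a replicate number and far apart between them, and whether libraries of 1 number were handled together is not given in the sources used here.

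The replicate number was not used by the rule, but this contrast is not independent of it. Each group holds 1 library of each number, so level group means make separation by number easier, by an amount not tested. The contrast was also read after this region had been seen. In 110 stable regions (3.69%) the 4 libraries of 1 number were all above or all below the other 8, where the share over the narrower shared regions was 1.83%. Replicate 1 was above in 11 and below in 14 stable regions, beside 0.155% and 0.194% of the narrower shared regions. Replicate 2 was above in 16 and below in 22, beside 0.299% and 0.36%. Replicate 3 was above in 17 and below in 32, beside 0.349% and 0.493%. Each number thus had regions in both directions. Between percentiles 25 and 75, the means of the 3 numbers lay a median of 12.3 points apart in stable regions and 13.5 points in the others. The group means lay 6.70 points apart in stable regions and 22.3 points in the others, a gap that the rule sets. After chr11:61735022-61735278, the widest gap among the 110 was 39.3 points at chr13:23949505-23949954, where the libraries numbered 3 held the 4 lowest percentiles, from 27.99 to 38.9. No test was made of these counts.

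The bottom of the ranking held regions at the edge of detection. The 5 lowest stable regions were chr15:48577995-48578196, chr4:6021513-6021637, chr4:141348745-141348971, chr12:53635502-53635777 and chrX:128957232-128957326. At the first, the summit pileup was 3, 3 and 3 fragments in GFP DMSO, 4, 2 and 4 in GFP dBRD9-A, 4, 5 and 3 in SMARCB1 DMSO and 2, 3 and 4 in SMARCB1 dBRD9-A. Over all 5 the pileup stayed between 2 and 6 fragments, so 1 fragment more or less moved the fold strongly, and no difference between groups is read there. The largest log2 difference of the whole stable set was of this kind. It was 0.67 at chr6:134962204-134962326, where the pileup was 2 to 8 fragments. With chr3:192908242-192908487, at 0.56 on pileups of 2 to 8 fragments, and chr5:11507-11784, it makes up the 3 stable regions past 0.5, named after their values were seen.

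The regions nearest the 5-point limit show where it falls. Just inside it, the largest deviation of a group mean was 4.998 points at chr16:68344725-68345016, with chr15:35598571-35599132 and chr13:92299731-92299870 next. Just outside it was 5.00005 points at chr4:159593025-159593592, with chr9:33076618-33076932 and chr3:194354102-194354479 next. The region on chromosome 13 was kept although its 3 GFP DMSO libraries stood at 34.4, 1.27 and 8.89. That on chromosome 4 was left out although all its libraries lay between 71.9 and 90.9.

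Whether the level rank held in libraries that had no part in the choice was read by choosing regions without the 4 libraries of 1 replicate number and taking their values in those 4. The 3 readings share libraries in their choice, so the spread over them is a description. Only regions with a peak in all 4 left-out libraries could be read. With replicates 1, 2 and 3 left out they were 91.8%, 91.5% and 92.7% of the chosen regions. Of the others they were 92.1%, 90.6% and 93.0%. Below percentile 10 they were 48.9%, 46.8% and 52.4% of the chosen regions, and 46.1%, 49.3% and 56.7% of the others. Among the readable regions chosen as stable from 8 libraries, 28.3% ± 2.07 (SD, n = 3 numbers left out) had all 4 left-out libraries within 5 points of their mean. Among those not chosen the share was 4.88% ± 0.329. Over the narrower shared regions as a whole the share was 8.17%, 7.55% and 7.94% with replicates 1, 2 and 3 left out. Much of that contrast follows the level. At percentile 90 or more the shares were 55.3% ± 2.68 and 33.2% ± 2.85. Between 25 and 75 they were 2.70% ± 0.799 and 2.002% ± 0.216, beside 2.29%, 1.82% and 1.99% of all narrower shared regions of that level, and so close to the background.

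The size of the difference between inductions was read in the same left-out libraries. Between percentiles 25 and 75 the median absolute SMARCB1 minus GFP difference was 10.04 ± 0.670 points in regions chosen as stable and 13.3 ± 0.386 points in those not chosen (n = 3). From 75 upward it was 3.63 ± 0.253 against 7.18 ± 0.497 points, a range in which the chosen regions also sat higher in rank. In narrower bins the gap was smaller, 5.70 ± 0.181 against 7.02 ± 0.459 points between 80 and 90 and 2.60 ± 0.230 against 4.71 ± 0.493 points from 90 upward. In each of these ranges the difference between the sets exceeded the spread over the 3 readings. For dBRD9-A minus DMSO between 25 and 75 the values were 9.49 ± 0.590 and 9.92 ± 0.690 points, which differ by less than that spread. From 90 upward they were 2.47 ± 0.174 and 4.08 ± 0.222 points, which differ by more than it, and between 80 and 90 they were 5.93 ± 0.311 and 6.05 ± 0.541 points, which do not. From 75 upward as a whole they were 3.57 ± 0.160 and 6.23 ± 0.393 points. Between 25 and 75, regions chosen as stable from 8 libraries thus had a smaller difference between inductions in the left-out libraries than those not chosen. That difference was still larger than in chosen regions from 75 upward. Stability is not read from these gaps, since the 3 readings share libraries and the sets were chosen on the same measure.

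**Figure D4:**
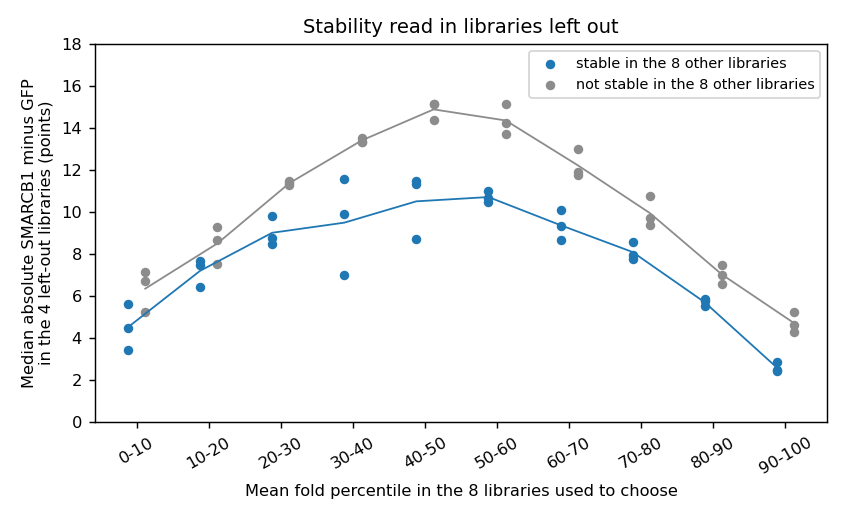
Median absolute SMARCB1 minus GFP difference in the 4 left-out libraries (vertical axis, percentile points) by mean percentile in the 8 libraries used to choose (horizontal axis); each dot is 1 replicate number left out, and lines join the means of 3. Only regions with a peak in all 4 left-out libraries are counted. Regions chosen as stable (blue) average below those not chosen (grey) in each bin, and both sets peak in the middle of the scale, at 10.7 and 14.9 points.

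Peaks at the stable regions were somewhat wider in SMARCB1 libraries, and so were those elsewhere. The median peak width at the stable regions was 250, 223.5 and 229 bp in GFP DMSO, 217, 220 and 255 bp in GFP dBRD9-A, 247, 254 and 250 bp in SMARCB1 DMSO and 260, 230 and 257 bp in SMARCB1 dBRD9-A. The groups overlap. The SMARCB1 minus GFP difference was 17.3 bp, and by replicate number it was -3, 30.5 and 21 bp in DMSO and 43, 10 and 2 bp in dBRD9-A. It was 28.6 bp at the other narrower shared regions. The dBRD9-A minus DMSO difference was -2.42 bp. Within each induction, width rose broadly with the median summit pileup over the shared regions, a measure other than the background pileup given above. The narrowest values come from libraries with 13 to 15 fragments, and the widest GFP values from those with 23 and 24. The SMARCB1 DMSO libraries, at 17, 19 and 19 fragments, were about as wide as those 2 GFP libraries. At 13 fragments the width was 230 bp in SMARCB1 dBRD9-A replicate 2 and 217 bp in GFP dBRD9-A replicate 1. The part of depth in the difference was not tested.

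**Figure D5:**
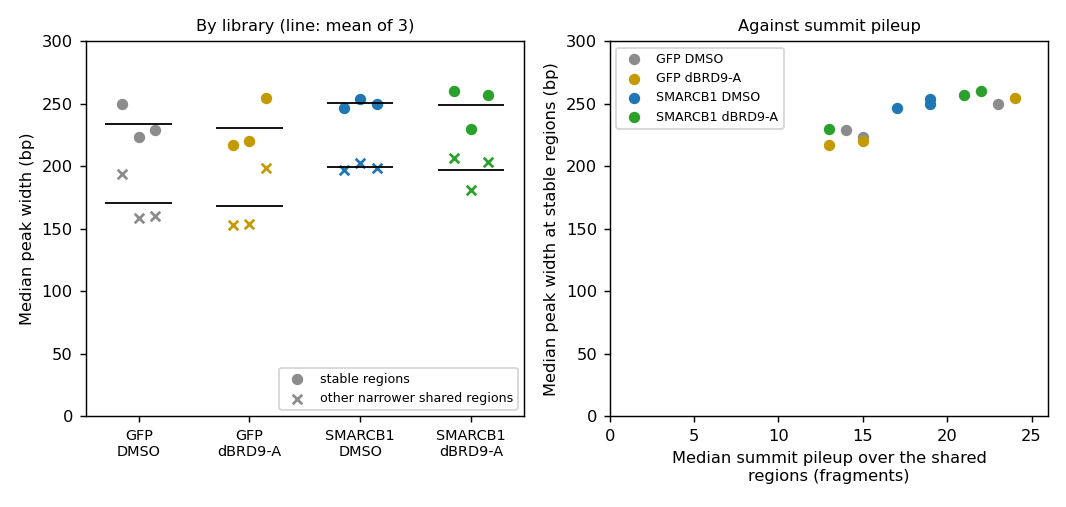
Median peak width per library (bp, axes from 0): on the left by group, with dots for stable regions, crosses for the other narrower shared regions and lines at the mean of 3 libraries; on the right at stable regions against the library's median summit pileup over the shared regions (fragments). Stable regions run from 217 to 260 bp and the others from 153 to 207 bp, and the narrow libraries are those with the lowest pileups.

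The stable regions were wider than the rest when all lists were merged. Their merged width had a median of 327 bp against 273 bp for the other narrower shared regions. From percentile 90 upward the medians were 348 and 321 bp, and between 50 and 60 they were 347 and 292.5 bp. Between 30 and 40 they were 255 and 251 bp, and between 40 and 50 the order was the reverse, 265 and 271 bp, so the wider merged width did not hold at every level. The 3 widest stable regions with a single peak in every library were chr3:149824476-149825460 (985 bp), chr3:129830308-129831254 (947 bp) and the region of 925 bp on chromosome 11.

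Within the regions, the position of the summit, the base of highest pileup, was not used to choose them, so the scatter of the summits could be tested. In 2718 stable regions (91.1%) every library had a single peak, as in 90.1% of the other narrower shared regions. The summits of the 12 libraries spanned a median of 56 bp in stable regions and 52 bp in the others. They lay within 10 bp in 114 stable regions (3.82%) and in 305 of the others (2.02%), and 82 of the 114 had a mean percentile of 90 or more. The share of stable regions was 9.66% at that level, 1.19% between 25 and 75 and 0.299% below 25. The others were not split by level, so the contrast between the sets is not separated from level. The distance of a library's summit from the region's median summit had a median over the stable regions of 6.0 ± 0.5 bp in GFP DMSO, 5.83 ± 0.764 bp in GFP dBRD9-A, 5.67 ± 0.289 bp in SMARCB1 DMSO and 5.83 ± 0.764 bp in SMARCB1 dBRD9-A (SD, n = 3). Two-sided exact permutation tests over libraries found no difference in this distance past the threshold. The distance has no direction and is taken from the median of all 12 libraries. A shift of the SMARCB1 summits to the same side could therefore go unseen. SMARCB1 minus GFP was -0.167 bp (exact permutation p = 0.81), dBRD9-A minus DMSO was 0 bp (p = 1), and the dBRD9-A effect in SMARCB1 minus that in GFP was 0.333 bp (p = 0.805). Adjusted over these 3 contrasts by Benjamini-Hochberg, each p was 1, where 400 arrangements allow a p as low as 0.005. Without GFP dBRD9-A replicate 3 the dBRD9-A difference was 0.667 bp (unadjusted exact permutation p = 0.05). That is the lowest p of all tests with 1 library left out over the 3 contrasts, so no effect is read from it.

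The surroundings of the stable regions were read against regions found only with SMARCB1. A region was called gained when all 6 SMARCB1 libraries and none of the 6 GFP libraries had a peak there, and 13634 of the 187088 merged regions were gained. A gained region lay within 10 kb of 296 stable regions (9.92%). The same held for 12.8% of the other narrower shared regions, 11.5% of those with a higher percentile in SMARCB1 and 13.8% of those with a lower one. From percentile 90 upward, the shares were 9.19% of stable regions and 9.05% of the others, so at that level they were alike. Between 25 and 75 they were 10.7% and 13.5%. No test was made across regions, which are not replicates.

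Single regions show that a level rank is found right beside gained chromatin and far from it. The stable region closest to a gained one, chr10:134385864-134386388, lay 180 bp from it. Its percentiles were 37.0, 31.8 and 31.6 in GFP DMSO, 38.4, 27.9 and 39.9 in GFP dBRD9-A, 22.0, 46.5 and 25.2 in SMARCB1 DMSO and 35.3, 32.0 and 18.5 in SMARCB1 dBRD9-A, with all groups overlapping. At chr1:10458737-10459139, 196 bp from a gained region, they ran from 58.2 to 77.9. The farthest were chr9:44245377-44245485, at 5525 kb, and chr5:21459438-21459666, at 5004 kb. The latter was a strong site, with folds of 30.6, 13.7 and 23.8 in GFP DMSO and 16.0 to 29.8 in the other libraries.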

How the data were processed

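The 12 deposited peak lists hold nucleosome-free fragments, per the labels. The submitters' processing notes name hg19, BWA 0.7.12-r1039 and MACS2 2.1.1.20160309. Each list gives the authors' score (not used), the fold as a ratio, the −log10 of p and q, and the summit offset in bp, an other quantity deposited per peak. Peaks were called per library; the filter is not stated in the labels. Coordinates are 1-based. Summit pileups were recovered as whole fragments from fold and −log10 p with a pseudocount of 1, for all shared regions within 0.001.

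Regions were merged and ranked in Python 3.11.15 with numpy 2.4.6, pandas 2.3.3 and scipy 1.17.1, tested on simulated data. Groups came from the labels. Members, lists and rules were chosen with earlier results of these data known. Regions named, none on chromosome 8, were the 5 of highest and 5 of lowest mean percentile; between percentiles 25 and 75 the 5 of smallest group deviation and the 3 of smallest and of largest span; the 3 just inside and just outside the limit; the 2 closest to and farthest from a gained region; and the 3 widest with 1 peak in each list. Others were named after their values were seen, as stated. Summit displacement was tested by two-sided exact permutation within the levels of the other factor. Alternatives were other limits, ranks, filters, merges, list lengths, a replicate block and each library left out.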

Additional observations from a re-analysis of the deposited data

How the results depend on the processing

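The number of stable regions depended on the limit and on what the percentile was taken over. It was 1167 at a limit of 3 points and 9003 at 10 points. It was 5624 with percentiles among all peaks of a list, 1925 where a library's peaks had to cover 50% of the region, and 1647 with lists of equal length. Ranking by −log10 p gave 3062, summit windows 2931, a width under 500 bp 2509 and a −log10 q of at least 5 gave 2080. Leaving out 1 library, or the 4 of 1 replicate number, gave 2391 to 2890. Of the 2984 regions, 64.2%, 50.3% and 47.8% were kept with all list peaks, with 50% cover and with equal lists, 84.3% with −log10 p ranks and 97.0% with summit windows. The causes were not tested.

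Peak width at 3 points was 250 bp in GFP DMSO, 268 bp in SMARCB1 DMSO and 266 bp in SMARCB1 dBRD9-A. At 10 points it was 205, 202, 219 and 219 bp in the 4 groups in their order above. With −log10 q of at least 5 it was 266 bp in SMARCB1 DMSO, and the share near a gained region was 6.92%. Summit displacement for SMARCB1 minus GFP turned to 0.0833 bp at 3 and at 10 points. With libraries left out it ran from -0.5 to 0 bp, the dBRD9-A difference from -0.25 to 0.667 bp and the interaction from -0.667 to 0.667 bp. The interaction turned negative without GFP DMSO replicate 3 (-0.333 bp) and without GFP dBRD9-A replicate 3 (-0.667 bp).

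Libraries of the same replicate number correlated at -0.0584 to 0.206 in their deviations from group means (18 pairs), and those of different numbers at -0.156 to 0.125. 11 of 12 libraries correlated best with one of their own number, a hint from the data that the labels do not state. Permutation within a replicate block left the SMARCB1 minus GFP difference at -0.167 bp (exact permutation p = 0.844) and changed no call. Depth limits the weak regions: under percentile 10 the median pileup was 5 fragments.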

Other observations

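Along the genome, stable regions were scattered. Of the 2984, 2001 had no other stable region as a neighbour among the shared regions. The rest formed 343 runs of 2, 73 runs of 3 and 19 of 4 or more. Stable regions are 16.5% of the narrower shared regions, and how many runs would form without clustering was not tested. The longest runs held 5 consecutive shared regions, over 292 kb from 45431001 to 45722780 on chromosome 14 and over 135 kb from 2900577 to 3035931 on chromosome 19. The nearest shared region of a stable region was itself stable in 17.2% of cases, against 15.9% for the other narrower shared regions. By chromosome, the stable share of narrower shared regions ran from 13.0% on chromosome 18 to 19.7% on chromosome 7, with 1 of 8 on chromosome Y.

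Crowding differed with the level. Another shared region lay within 5 kb of 26.5% of stable regions between percentiles 25 and 75 and of 21.5% of the others there. From 90 upward the shares were 5.06% and 5.35%. A local background above 1 fragment, as the median over the libraries, was found at 616 stable regions (20.6%) and at 11.4% of the other narrower shared regions. The strongest stable region, on chromosome 10, had a background of 4.05 to 9.60 fragments.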
